A study of Mus musculus with 3 samples.

Results

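The genes described here are those of the proteasome: its subunits, its activators and inhibitor, and the chaperones that assemble it. They were taken by symbol, as every listed gene whose name is Psma to Psmg followed by a number, plus Psmf1, Pomp, Adrm1 and Shfm1, the older symbol of Sem1. This gave 53 of 24467 listed genes. One match by name, Psmc3ip, encodes a partner of Psmc3 with a role in meiotic recombination and is no subunit, so it was kept apart from the other 52.

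The measurement was sequencing of polyadenylated RNA from 5TGM1.BRE, a mouse myeloma line that resists bortezomib, can engraft, and was recovered from C57BL/KaLwRij bone marrow. Bortezomib, an inhibitor of the proteasome, was present at 10 nM in routine culture and had been absent for 72 h or more when 10000000 cells per sample were lysed. These conditions are those of the growth and treatment protocols, which all 3 samples carry, but the cell type given for replicate 1, unlike that for replicates 2 and 3, makes no mention of bortezomib. The 3 libraries form 1 group, with 62303493, 45705994 and 59402218 counts in replicates 1, 2 and 3, and the sensitive parental line was not analysed here, so levels cannot be set against sensitive cells. Nothing in the labels states that each replicate was its own culture, and every SD below covers only how these 3 samples differ, which could be technical. All 8 plasma cell markers on a fixed list were at 1 CPM or more (counts scaled to a library total of 1000000) in every library, with a sum of 4504 to 4611 CPM. The 8 markers of T and NK cells summed to 0.219 to 0.482 CPM and the 8 myeloid markers to 0.175 to 0.488 CPM, with none at 1 CPM. Of 8 B cell markers 2 were detected, Cd79b at 92.0 CPM and Ms4a1 at 2.21 CPM, and of 8 markers of stroma and endothelium 1 was.

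The proteasome degrades proteins tagged with ubiquitin. Its core particle is a barrel of stacked rings: outer alpha rings that form the gate and inner beta rings that hold the cutting sites. A regulatory particle docks on the alpha ring, with a base of ATPases that unfold the substrate and a lid that removes ubiquitin. In immune cells, and after interferon, the cutting subunits can be exchanged for immune forms. Plasma cells and myeloma cells make large amounts of antibody and depend strongly on proteasome activity.

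Replicate 3 stood apart from the other 2 libraries along transcript length, and this touches most values below. Over all 11308 genes with enough counts to test, the difference of replicate 3 from the mean of the other 2 had a median of 0.01 on the log2 scale after TMM scaling, a scaling to the bulk of genes. It was 0.21 in the 2808 genes with the shortest summed exons and -0.19 in the 2808 with the longest. The proteasome genes are described with that background beside them.

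Of the 53 genes, 51 reached 1 CPM in all 3 libraries, against 40.9% of all listed genes. The exceptions were the tissue-specific core subunits. Psma8, the alpha subunit of spermatocytes, had 1 count in replicate 1 and 0 in replicates 2 and 3, where a count of 0 allows up to 0.0656 and 0.0505 CPM. Psmb11, the beta subunit of thymic cortical epithelium, had 6, 1 and 2 counts in replicates 1, 2 and 3. Both were therefore at or near the limit of detection in these cells. Without Psmc3ip, the genes together took 1.25%, 1.25% and 1.37% of all counts in replicates 1, 2 and 3. The share was highest in replicate 3, where most members were also highest.

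**Figure D1:**
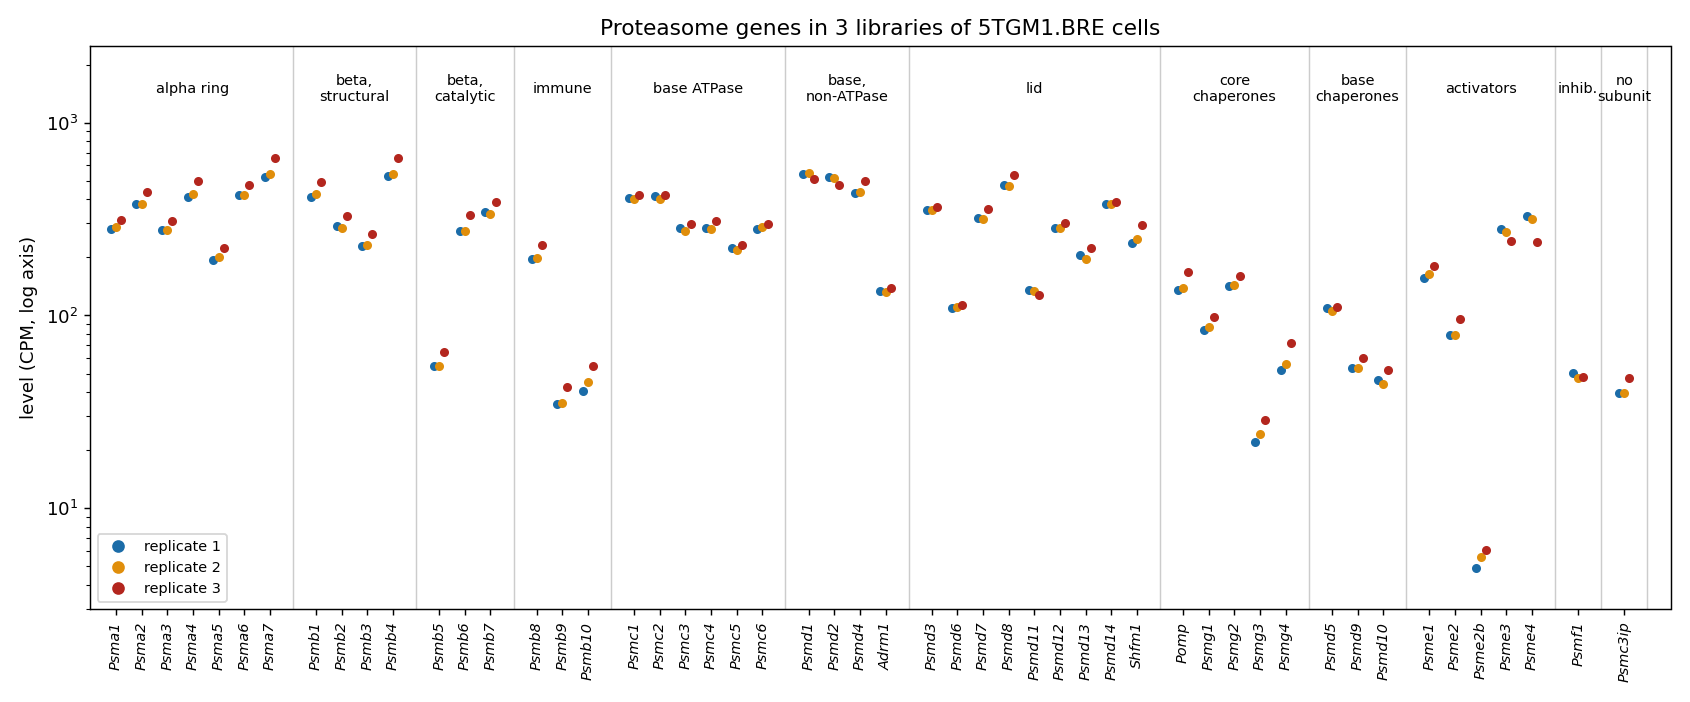
Level of each proteasome gene in CPM (log axis) in the 3 libraries, with genes grouped by role and points coloured by replicate. Psma8 and Psmb11 are below the axis and not drawn. Psmb5 lies far below Psmb6 and Psmb7, and replicate 3 is the highest point for most genes.

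Levels of different genes were compared per kilobase, and the length used for a gene decided several orders. The main length was the union of all annotated exons. Others were the longest transcript, the coding length and no length, and, added after seeing the data, the principal transcript and the part of it made of 50-base words found in no other annotated gene. An order is stated without reserve only where these lengths gave the same direction. Of 23 ratios between genes or groups, 14 had the same direction under all 6 length settings and 9 did not. Every ratio by union length had its direction in 3 of 3 libraries, with p = 0.25 (exact two-sided sign-flip permutation test) and an adjusted p of 0.25, the smallest that 3 libraries allow, so no ratio could pass a threshold of 0.05.

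Several members share sequence with other annotated genes, called copies here. This bears on their counts because the authors' handling of reads that match several places is not given in the sources used here. In 6 members, at least 50% of the 50-base words of the principal transcript also occur in another annotated gene. These were Adrm1 (78.0%), Psme2b (69.3%), Psme2 (59.3%), Psmb5 (57.1%), Psmb3 (55.8%) and Psma5 (54.5%), while 29 members shared none. Another 18 shared under 50%. Of these, 7 shared 10% or more: Psmd2 (26.4%), Psma4 (25.6%), Psmg3 (22.7%), Psma3 (22.0%), Psmc1 (17.6%), Psme1 (14.1%) and Psmd11 (14.0%). Psmb5, Adrm1 and Psme2b were each the lowest gene of their role group both by union length and by principal transcript. By the same lengths, Psma5 was in place 4 and place 3 from the lowest of the 7 alpha genes, Psmb3 in place 2 of 4, and Psme2 in place 3 of 5. By CPM, Psma5 and Psmb3 were also the lowest of their groups and Psme2 was in place 2. By unshared sequence, Psmb3, Adrm1 and Psme2 were the highest of their groups, while Psmb5 and Psme2b stayed the lowest. This setting divides all counts of a gene by its unshared length alone. No reads were assigned to unshared sequence, so such a level is too high where reads from shared sequence were counted. The part of shared sequence in these levels was not tested. The stretches below were placed at the end of the longest run that Psmb5 or Adrm1 shares with its copy. They show the pairs where they match best, not over their whole length. The Psmb5 and Adrm1 lines are 80 bases of coding sequence. The Gm3375 and Gm9774 lines are the matching 80 bases of their transcripts, whether coding or not. All are from GENCODE M21, 5′ to 3′, with the base that differs in capitals.

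Psmb5: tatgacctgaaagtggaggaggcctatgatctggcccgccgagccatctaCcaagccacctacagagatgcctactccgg
Gm3375: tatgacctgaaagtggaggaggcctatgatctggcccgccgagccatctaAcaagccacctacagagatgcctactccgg
Adrm1: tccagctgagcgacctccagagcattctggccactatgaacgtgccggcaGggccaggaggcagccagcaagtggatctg
Gm9774: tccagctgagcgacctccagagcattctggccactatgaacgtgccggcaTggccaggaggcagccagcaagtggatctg

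The longest run shared without a difference was 194 of 792 coding bases for Psmb5 and Gm3375 and 834 of 1221 coding bases for Adrm1 and Gm9774. Gm3375 and Gm9774 were not analysed here.

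The alpha ring genes were all abundant, from 206 CPM for Psma5 to 575 CPM for Psma7. Per kilobase of union length, Psma6 was the highest at 343, 342 and 387 CPM per kilobase in replicates 1, 2 and 3 (357 ± 25.7, SD, n = 3). Psma3 was the lowest at 71.4, 71.7 and 79.6 CPM per kilobase (74.2 ± 4.69). The ranges of these genes did not overlap, and Psma3 was also the lowest by longest transcript, principal transcript and unshared sequence, but by coding length Psma5 was. By principal transcript, Psma7 took the first place at 629 ± 77.7 CPM per kilobase. Psma4 and Psma7 (188 and 187 CPM per kilobase of union length) overlapped across libraries, as did Psma2 and Psma1 (108 and 99.7). Psma5, with its shared sequence, had 156 ± 11.6 CPM per kilobase of union length.

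The structural beta subunits, which complete the inner ring without cutting, had a median level of 178 CPM per kilobase of union length, against 156 for the alpha ring. Their median was also the higher by longest transcript, principal transcript and unshared sequence. By coding length it was the lower, at 558 against 566 CPM per kilobase, and so it was without a length, at 372 against 397 CPM. Psmb4 was the highest per kilobase of union length, at 272, 278 and 338 CPM per kilobase in replicates 1, 2 and 3. Psmb1 was the lowest, at 89.5, 92.8 and 107 CPM per kilobase. Psmb2 (250 ± 20.5) overlapped Psmb4, and Psmb3 (105 ± 8.78) overlapped Psmb1. By principal transcript Psmb4 and Psmb1 kept these places. By longest transcript, coding length and CPM, Psmb4 was again the highest, but Psmb3 was the lowest. By unshared sequence Psmb3 was the highest, at 762 CPM per kilobase against 510 for Psmb4, and Psmb1 the lowest. Against the geometric mean of these 4 genes, that of the 7 alpha genes was lower by a small margin, with a log2 ratio of -0.16 ± 0.02 (SD, n = 3) that kept its direction under all 6 length settings.

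The cutting sites of the constitutive core are Psmb6, the caspase-like subunit, Psmb7, the trypsin-like subunit, and Psmb5, the chymotrypsin-like subunit and main target of bortezomib. Psmb5 had 54.7, 54.9 and 64.5 CPM in replicates 1, 2 and 3. Psmb6 had 275, 275 and 333 CPM, and Psmb7 had 342, 336 and 387 CPM. Psmb5 was thus the lowest of these genes in every library, with no overlap. Per kilobase of union length, Psmb5 was at 64.5 ± 6.23, Psmb6 at 157 ± 18.0 and Psmb7 at 104 ± 8.15 CPM per kilobase. Psmb5 was 2.43-fold below Psmb6, with a log2 ratio of -1.28 ± 0.02, and 1.61-fold below Psmb7, with a log2 ratio of -0.69 ± 0.03. Both directions held under all 6 length settings, but the sizes did not. By principal transcript the differences were 5.71-fold from Psmb6 and 4.75-fold from Psmb7, by coding length 5.62-fold and 5.84-fold, by longest transcript 4.71-fold and 1.93-fold, and with no length 5.07-fold and 6.13-fold. Counting only the sequence that Psmb5 shares with no other gene as its length, it had 159 CPM per kilobase, against 404 for Psmb6 and 320 for Psmb7, a difference from Psmb6 of 2.54-fold.

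The immune forms Psmb8, Psmb9 and Psmb10 take the places of Psmb5, Psmb6 and Psmb7. Psmb8 had 196, 198 and 233 CPM in replicates 1, 2 and 3. Psmb9 had 34.8, 35.0 and 42.5 CPM, and Psmb10 had 40.5, 45.0 and 54.7 CPM. Replicate 3 was the highest for each, and Psmb8 was above the other immune genes in every library. Per kilobase of union length, Psmb8 was at 61.8 ± 6.09, Psmb10 at 27.4 ± 4.23 and Psmb9 at 10.2 ± 1.20 CPM per kilobase. As a group the immune genes were 3.94-fold below the constitutive ones, with a log2 ratio of -1.98 ± 0.05. The direction was the same under all 6 length settings, with sizes from 2.51-fold by coding length to 5.28-fold by unshared sequence.

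The pairs differed in how much the immune form contributed. Psmb9 made up 6.10% ± 0.02 of the summed level per union kilobase of Psmb9 and Psmb6. Over the other lengths its share ran from 4.08% by longest transcript to 12.1% by coding length. Psmb10 made up 20.8% ± 1.46 of its pair with Psmb7, and from 10.3% by unshared sequence to 22.2% by longest transcript. Psmb8 made up 48.9% ± 0.06 of its pair with Psmb5. That last share rested on the length used: it was 45.4% by unshared sequence, 62.9% by longest transcript, 66.5% by principal transcript, 77.5% by coding length and 78.3% with no length. Psmb8 was thus the higher gene of the pair under 4 of the 6 settings and the lower under 2. The spread between libraries was smaller than these differences between lengths. Some exons of these genes overlap other genes, and the strand setting of the counting is not given in the sources used here. On the opposite strand, Psmb8 overlaps Gm20496 over 14.7% of its exon length, Psmb7 overlaps Nek6 over 11.8% and Psmb9 overlaps Tap1 over 5.79%. On the same strand, Psmb5 overlaps Mir686 over 12.1%.

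**Figure D2:**
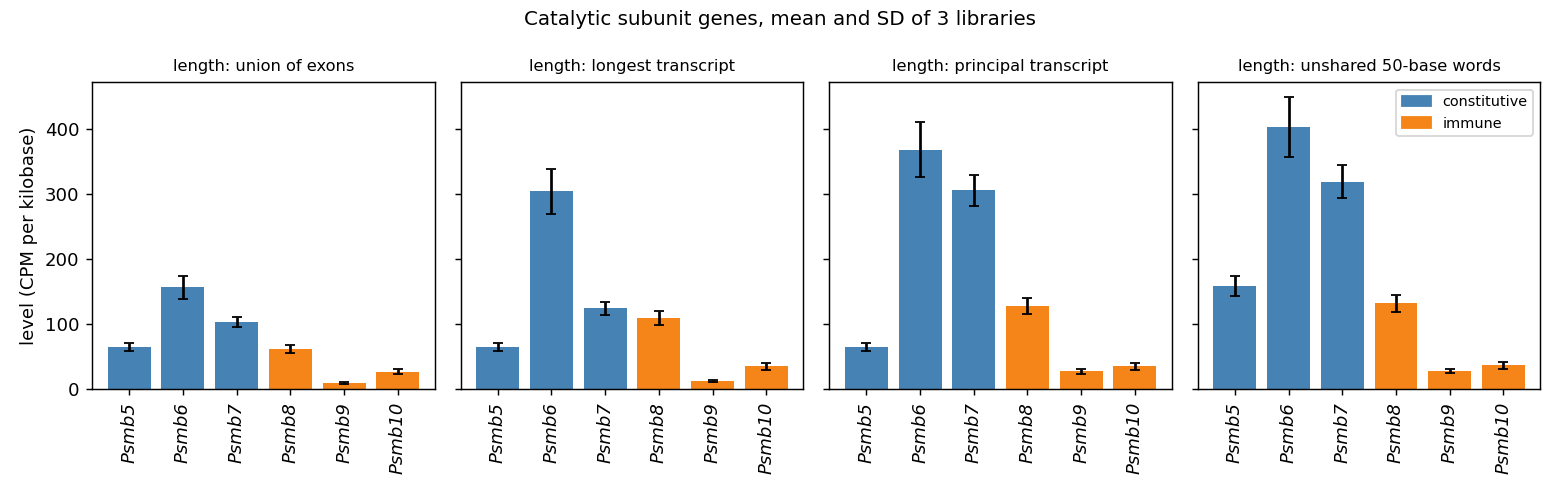
Level of the constitutive (blue) and immune (orange) catalytic genes in CPM per kilobase, mean with SD of 3 libraries, with the union of exons, the longest transcript, the principal transcript and unshared sequence as gene length. Psmb6 is the highest and Psmb9 the lowest in these 4 panels, whereas by coding length, not drawn, Psmb7 is the highest at 428 against 412 for Psmb6, and the order of Psmb8 and Psmb5 changes between panels.

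The 250 bases before the start of Psmb5 and of Psmb6 are shown because both hold TGACNNNGC, the core of the element bound by Nfe2l1 and Nfe2l2, factors known to drive proteasome genes when the proteasome is inhibited. Sequences are from RefSeq (GRCm38.p6), with the match in capitals. The Psmb5 window is chr14:54617996-54618245 on the minus strand and the Psmb6 window is chr11:70525107-70525356 on the plus strand. The starts are those of RefSeq. GENCODE M21 places the start of Psmb5 at 54618022, inside its window, and that of Psmb6 at 70525367, outside its window.

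Psmb5: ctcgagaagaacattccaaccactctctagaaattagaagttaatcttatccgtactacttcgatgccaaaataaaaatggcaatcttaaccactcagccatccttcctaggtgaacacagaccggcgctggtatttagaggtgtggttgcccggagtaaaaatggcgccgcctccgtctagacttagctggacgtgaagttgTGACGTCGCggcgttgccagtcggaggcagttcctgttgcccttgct
Psmb6: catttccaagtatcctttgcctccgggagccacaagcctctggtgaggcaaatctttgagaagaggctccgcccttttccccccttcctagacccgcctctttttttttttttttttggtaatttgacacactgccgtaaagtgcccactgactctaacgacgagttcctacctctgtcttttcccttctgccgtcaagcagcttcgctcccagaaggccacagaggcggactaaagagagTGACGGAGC

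A window was found for 45 of the 53 members. A gene was counted if any of its windows held the motif. On either strand, TGACNNNGC occurred in 6 of the 45 (13.3%), namely Psmb5, Psmb6, Psmc6, Adrm1, Psmd12 and Psmd9, and in 11.5% of all 27025 genes with a window. CCAAT, the box bound by NF-Y, occurred in 16 of 45 (35.6%), among them 5 of the 7 alpha genes, and in 37.5% of all genes. The core of the interferon-stimulated response element, which is GAAA followed after 2 bases by GAAA, occurred in Psmb3, Psmd4 and Psmd9 (6.67%), and in 3.46% of all genes. The shares in the members lay near those of all genes for the first 2 motifs, and the third rests on 3 genes only. No difference in share was tested.

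In the base, the 6 ATPases Psmc1 to Psmc6, which form the unfolding ring, had a 1.84-fold span of CPM, from 225 for Psmc5 to 413 for Psmc2. Per kilobase of union length their span was 2.59-fold, against 4.81-fold in the 7 alpha genes and 7.76-fold in the 9 lid genes. It was 3.07-fold in the 4 structural beta genes and 2.44-fold in the 3 constitutive catalytic genes, the only smaller span of these groups. By principal transcript the structural beta genes and the base chaperones, at 1.94-fold and 1.55-fold, had smaller spans than the ATPases. The spans were not adjusted for the number of genes in a group. Psmc1 was the highest per kilobase of union length, at 210, 209 and 219 CPM per kilobase in replicates 1, 2 and 3, and it was the highest under each of the 5 lengths. Psmc2 was the lowest by union length at 82.5, 79.9 and 83.7 CPM per kilobase and overlapped Psmc6 (82.3 ± 2.57). By principal transcript Psmc6 was the lowest at 129 ± 4.02 CPM per kilobase, and by coding length Psmc5 was. The core structural genes are the 11 alpha ring and structural beta genes, without the catalytic genes. They exceeded the ATPases by a log2 ratio of 0.33 ± 0.08, or 1.25-fold. The direction was the same under all 6 length settings, with sizes from 1.16-fold with no length to 2.07-fold by coding length.

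The other base subunits are the scaffold proteins Psmd1 and Psmd2, which dock ubiquitin shuttles and deubiquitinases, and the ubiquitin receptors Psmd4 and Adrm1. Psmd4 was the highest per kilobase of union length, at 153, 156 and 178 CPM per kilobase in replicates 1, 2 and 3. Adrm1 was the lowest at 30.0, 29.8 and 31.3 CPM per kilobase. The log2 ratio of Psmd4 to Adrm1 was 2.42 ± 0.08, but -0.22 when only unshared sequence was used as length, so the order changes once the sequence shared with Gm9774 is left out of the length. Psmd1 and Psmd2 had 532 ± 21.5 and 504 ± 25.3 CPM. By union length Psmd2 was 1.70-fold above Psmd1, at 125 ± 6.26 against 73.2 ± 2.96 CPM per kilobase, a log2 ratio of 0.77 ± 0.02. The log2 ratio was 0.31 by unshared sequence, and by principal transcript the genes overlapped across libraries, at 170 ± 8.54 and 171 ± 6.92 CPM per kilobase.

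The lid holds Psmd14, the deubiquitinase that cuts ubiquitin off the substrate, its inactive partner Psmd7, the scaffold subunits Psmd3, Psmd6, Psmd8, Psmd11, Psmd12 and Psmd13, and the small acidic subunit Shfm1. Psmd8 was the highest per kilobase of union length, at 155, 153 and 175 CPM per kilobase in replicates 1, 2 and 3. Psmd11 was the lowest at 21.3, 20.9 and 20.1 CPM per kilobase, which is 7.76-fold below Psmd8. These places held by longest transcript, principal transcript and unshared sequence. By coding length Shfm1, whose coding sequence is very short, was the highest and Psmd6 the lowest. Psmd14 and Psmd7 had 382 ± 6.45 and 331 ± 22.3 CPM, and their log2 ratio of -0.11 ± 0.07 changed sign under each of the other 5 length settings. The core structural genes exceeded the lid by a log2 ratio of 1.00 ± 0.06. Against all 19 genes of the regulatory particle without its chaperones the log2 ratio was 0.77 ± 0.08, or 1.70-fold. Both ratios kept their direction under all 6 lengths.

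As a group, the chaperones of the core particle lay below the subunits they assemble. Pomp, which guides beta ring assembly, had 136, 139 and 168 CPM in replicates 1, 2 and 3. Of the pair Psmg1 and Psmg2, which builds the alpha ring, Psmg1 had 84.2, 86.9 and 97.8 CPM and Psmg2 had 142, 143 and 161 CPM. Of the second pair, Psmg3 had 22.2, 24.3 and 28.8 CPM and Psmg4 had 51.9, 56.1 and 71.6 CPM. Replicate 3 was the highest for all 5 genes. The partners were unequal within each pair: the log2 ratio was -0.36 ± 0.02 for Psmg1 to Psmg2 and -3.63 ± 0.06 for Psmg3 to Psmg4, with the same directions under all 6 lengths. The size of the latter rested on the length, at -1.92 by principal transcript and -1.24 by coding length. The exons of Psmg3 overlap Gm26938 on the same strand over 9.68% of their length. The core structural genes exceeded the core chaperones 3.58-fold, with a log2 ratio of 1.84 ± 0.04.

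The chaperones of the base, Psmd5, Psmd9 and Psmd10, each hold a part of the ATPase ring during assembly. Psmd5 had 110, 106 and 111 CPM, Psmd9 had 53.5, 53.5 and 60.2 CPM, and Psmd10 had 46.4, 44.2 and 52.3 CPM in replicates 1, 2 and 3. Per kilobase of union length they were at 15.0 ± 0.36, 7.69 ± 0.54 and 32.4 ± 2.87 CPM per kilobase. The ATPases exceeded them 7.91-fold, with a log2 ratio of 2.98 ± 0.04. The direction was the same under all 6 length settings, but the size fell to 4.72-fold with no length and 3.25-fold by coding length. The exons of Psmd9 overlap Gm26745 on the opposite strand over 25.5% of their length.

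The activators open the gate of the core in place of the regulatory particle. Psme1 and Psme2 form an interferon-inducible ring, Psme3 forms a nuclear ring of its own, and Psme4 is a large single-chain activator. Psme1 had 156, 164 and 181 CPM in replicates 1, 2 and 3, and Psme2 had 79.4, 79.4 and 95.4 CPM. Psme3 had 280, 270 and 244 CPM, and Psme4 had 328, 315 and 241 CPM. The first pair was thus highest in replicate 3 and the others lowest there. Psme2b, the copy of Psme2, had 4.91, 5.58 and 6.09 CPM. By union length Psme3 was the highest at 89.8 ± 6.30 CPM per kilobase, then Psme1 at 75.6 ± 5.83, Psme2 at 48.0 ± 5.22 and Psme4 at 35.2 ± 5.63. By principal transcript Psme1 was the highest at 150 ± 11.6 and by unshared sequence Psme2 at 228 CPM per kilobase, so no order of these activators held throughout. Psme1 exceeded Psme4 under each of the 5 lengths, with a log2 ratio of 1.12 ± 0.35 by union length and 2.08 by coding length, but not without a length.

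Psmf1, an inhibitor of the core, had 50.4, 47.5 and 48.2 CPM in replicates 1, 2 and 3, or 7.56 ± 0.23 CPM per kilobase of union length. Psmc3ip, the match by name, had 39.6, 39.8 and 47.2 CPM.

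**Figure D3:**
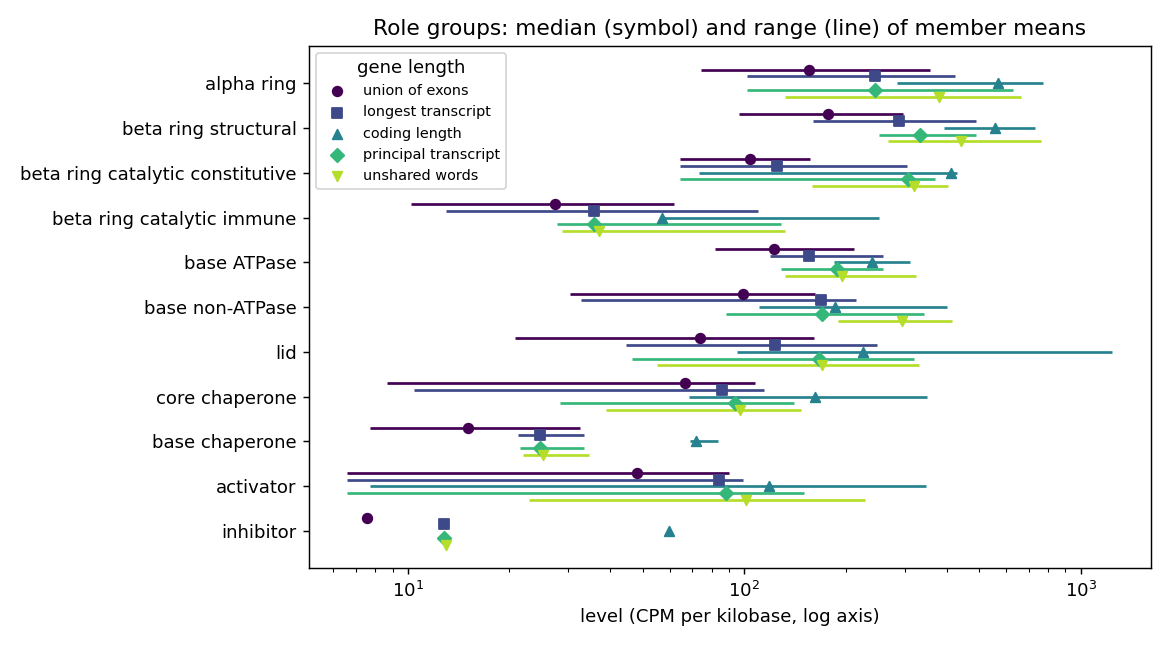
Level of each role group in CPM per kilobase (log axis) under 5 definitions of gene length: symbols are the median over the members' means and lines the range from the lowest to the highest member. By their medians, the alpha ring, structural beta and constitutive catalytic genes are to the right of the chaperones and the inhibitor under each length, and the immune genes are to the left of the constitutive catalytic genes.

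Differences between the libraries were tested for each gene with a chi-square test of homogeneity against the TMM library sizes, with Benjamini-Hochberg adjustment over all genes tested. It compares these libraries only, and takes reads as independent. Of 51 members tested, 49 varied beyond counting noise, against 62.9% of all genes tested. The test detects smaller differences in genes with more counts, and these shares were not matched for counts. The median coefficient of variation was 8.95% over the members and 7.95% over all genes tested. The exceptions were Psmd11 (adjusted p = 0.0995) and Psmf1 (adjusted p = 0.191). Without replicate 3, 10 of 51 did, against 8.60% of all genes. With a coefficient of variation of at least 10% as well, 18 of 51 did, against 26.5% of all genes. These 18 were all 3 immune genes, Psma4, Psma7, Psmb1, Psmb4, Psmb5, Psmb6, Shfm1, Pomp, Psmg3, Psmg4, Psmd10, Psme2, Psme2b, Psme4 and Psmc3ip. None of the 6 ATPases or of the 4 other base subunits was among them.

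The variation was nearly all between replicate 3 and the rest. After TMM scaling, 45 of 51 members were highest in replicate 3, against 45.3% of all genes tested. In replicate 1, 5 members were highest, against 32.4% of all genes, and in replicate 2, 1 member was, against 22.3%. Another 5 were lowest in replicate 3, against 43.8%. Set against the mean of the other 2 libraries, 46 members were higher in replicate 3, against 51.1% of all genes. The same held for 6 members in replicate 1 and 6 in replicate 2, against 50% and 50.5% of all genes. The 5 members lower in replicate 3 were Psmd1, Psmd2, Psmd11, Psme3 and Psme4. The median difference of replicate 3 was 0.21 over the members and 0.01 over all genes, while replicates 1 and 2 differed by a median of 0.01 over the members.

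The members' differences ran with transcript length as those of all genes did. The 9 members with a principal transcript of up to 1000 bases had a median difference of 0.29, against 0.30 for all 904 genes of that length. For 1000 to 1500 bases it was 0.22 over 18 members and 0.22 over all genes, and for 1500 to 2000 bases 0.16 over 12 members and 0.14. For 2000 to 3000 bases it was 0.10 over 8 members and 0.04, and above 3000 bases -0.03 over 4 members and -0.15. The shortest member, Psmg4, had the highest difference, 0.44, and the longest, Psme4, the lowest, -0.39. Across the 51 members, which share these libraries, the difference and the log2 length had a Pearson r of -0.76 and a Spearman rho of -0.68, against -0.56 and -0.67 over 11232 genes. With the trend on principal transcript length over all genes removed, the median of the members was 0.01, and 28 of 51 were above 0, against 50.1% of all genes. With the trend on union length removed it was 0.09, and 38 of 51 were above 0, against 51.1% of all genes. What makes replicate 3 differ along length was not tested.

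The groups are given here under both trends, as a description only. With the trend on principal transcript length removed, 4 of 7 alpha genes, 2 of 4 structural beta genes, 2 of 3 constitutive catalytic genes and all 3 immune genes were above 0. So were 1 of 6 ATPases, 1 of 4 other base subunits, 6 of 9 lid genes, 3 of 5 core chaperones, all 3 base chaperones, 1 of 5 activators and Psmf1. With the trend on union length removed, the counts were 5 of 7, 3 of 4, 2 of 3 and 3 of 3 in the core, and 4 of 6, 3 of 4 and 7 of 9 in the ATPases, other base subunits and lid. They were 4 of 5, 3 of 3 and 2 of 5 in the core chaperones, base chaperones and activators, and Psmf1 was above 0. The side on which most ATPases and most other base subunits lay thus changed with the length used. Psmc2, for example, was at -0.06 under the first trend and 0.12 under the second. The immune genes ranged from 0.12 to 0.19 under the first trend and from 0.19 to 0.29 under the second, and Psme3 was at -0.15 and -0.22.

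**Figure D4:**
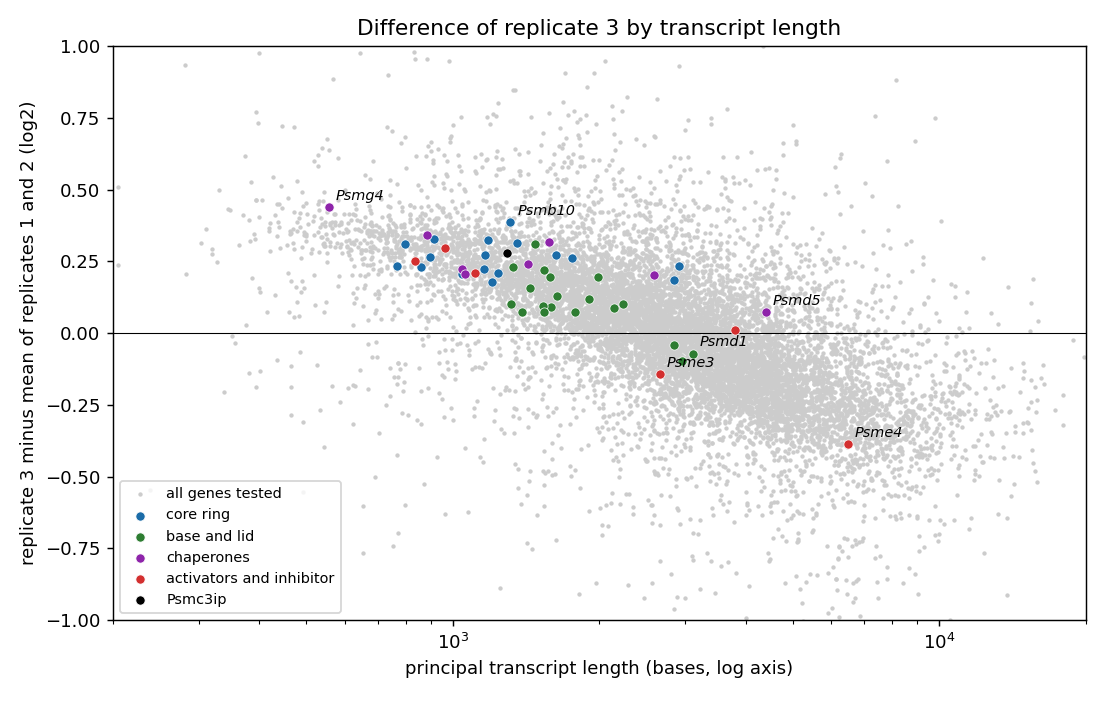
Difference of replicate 3 from the mean of replicates 1 and 2 (log2, TMM-scaled) against the length of the principal transcript (log axis), for all genes tested (grey) and the proteasome genes (coloured by role). The proteasome genes follow the fall of the grey points, from 0.44 for Psmg4 to -0.39 for Psme4. The y axis ends at -1 and 1, and 194 of 11232 genes lie outside the axes.

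Other genes of the pathway came from a list of 20 symbols, of which 18 were found, all at 1 CPM or more in every library. Nfe2l1, the factor that drives proteasome genes after inhibition, had 300, 286 and 259 CPM in replicates 1, 2 and 3. Ddi2, the protease that activates it, had 12.3, 10.5 and 4.71 CPM, and Ngly1, the glycanase needed for that activation, had 21.6 ± 0.55 CPM. Ddi2 was thus lowest in replicate 3, with a log2 difference of -1.23, and -1.04 with the trend on union length removed. The proteasome deubiquitinases Usp14 and Uchl5 had 313 ± 12.9 and 132 ± 7.36 CPM. Of the 18 genes, 13 varied beyond counting noise, and 6 were higher and 12 lower in replicate 3, against 62.9% of all genes that varied and 51.1% that were higher. Their median difference was -0.05. With the trend on union length removed it was -0.04, with 8 of 18 above 0, and with the trend on principal transcript length removed it was 0.01, with 10 of 18 above 0.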

How the data were processed

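RNA of 3 samples of 5TGM1.BRE cells was sequenced. Each sample's deposited table lists whole-number counts, not normalized, for 24467 gene symbols. The submitters' processing notes name mm10 as the genome build, and bcl2fastq, STAR and cutadapt 4.2 as the authors' tools. How counts were made (program, gene models, strand, reads with several matches) is not given in the sources used here. Depth was 62303493, 45705994 and 59402218 counts, so that 0 counts leave room for levels up to 0.0482, 0.0656 and 0.0505 CPM (3 counts). PCR copies are not separate molecules, and these limits therefore hold for counting error alone.

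CPM used library totals. Gene models were those of GENCODE M21, on the same assembly as mm10, and all 53 members had a length. edgeR 4.0.16 in R 4.3.3 gave TMM factors and filterByExpr, which kept 11308 genes. With 1 group, no contrast between groups exists, and the spread between libraries was tested with a chi-square test of homogeneity, adjusted by Benjamini-Hochberg at 0.05. The test was checked on simulated counts that held counting noise and set changes only. That check had no trend on length and does not cover other spread between these libraries. Python 3.11.15, pandas 2.3.3 and SciPy 1.17.1 were used for the rest. Trends on length were removed with loess (span 0.3).

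The members, lists, ratios and tests were chosen with earlier results of these data known. Every member is named in its role group. Values per library are given for the catalytic, immune, tissue-specific, activator, inhibitor and chaperone genes, for the highest and lowest member per kilobase of the other groups, and for members under 1 CPM, and other genes come from fixed lists only. Genes named as copies or overlapping genes come from the annotation. Alternatives were other lengths, scalings, filters and detection limits, and leaving out each replicate. The principal transcript and unshared sequence as lengths, the 10% coefficient of variation, the trend on principal length and the median over genes in the members' length range were chosen after seeing the data. The sequence of some members is not reported here.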

Additional observations from a re-analysis of the deposited data

How the results depend on the processing

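No paired analysis was possible because the samples form 1 group. Of 23 ratios, 9 changed direction with the gene length, by log2 ratio. With the longest transcript, Psmb8 to Psmb5 was 0.76, Psme1 to Psme2 -0.063, Psmd2 to Psmd1 -0.027 and Psmd14 to Psmd7 0.25. With the coding length, base ATPases to lid was -0.15, Psmb8 to Psmb5 1.78, Psmd2 to Psmd1 -0.0095 and Psmd14 to Psmd7 0.26. With the principal transcript, Psmb8 to Psmb5 was 0.99, Psme1 to Psme3 0.60, Psmd2 to Psmd1 -0.0075 and Psmd14 to Psmd7 0.25. With unshared sequence, base ATPases to the other base genes was -0.49, Psme1 to Psme2 -0.31, Psme1 to Psme3 0.85, Psmd4 to Adrm1 -0.22 and Psmd14 to Psmd7 0.27. With no length, base ATPases to the other base genes was -0.20, Psmb8 to Psmb5 1.85, Psme1 to Psme4 -0.81, Psmd2 to Psmd1 -0.079 and Psmd14 to Psmd7 0.21. By construction these settings differ only in the length a gene is divided by.

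The median level of 81.7 CPM per kilobase was 118 by longest transcript, 145 by principal transcript and 172 by unshared sequence. The 49 members that varied between libraries became 18 with the 10% coefficient of variation, and 10 to 49 with a replicate left out, 10 without replicate 3. The median differences of replicates 1, 2 and 3 (-0.10, -0.09 and 0.21) were -0.084, -0.075 and 0.18 with library totals, and -0.041, -0.054 and 0.094 with the trend on union length removed. They were 0.011, -0.022 and 0.0093 with the trend on principal transcript length removed, and -0.083, -0.074 and 0.17 less the median of genes in the members' length range. With a replicate left out they were -0.21 to -0.0083, -0.20 to 0.0083 and 0.20 to 0.21. The cause of these shifts was not tested.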
